A study of Williopsis jadinii with 8 samples.

Results

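The comparison described here sets the recombinant xylose-fermenting yeast strain TMS174, grown on xylose, against the wild type grown on glucose. It uses 5 of the 8 one-colour oligonucleotide arrays of a Candida utilis study (listed as Williopsis jadinii), chosen by their titles: 2 arrays of TMS174 after 24 h on xylose and 3 arrays of the wild-type strain NBRC0988 (WT) after 10.5 h on glucose. The other 3 arrays, of WT after 24 h on xylose, entered the estimate of the spread and are shown beside the results. Each array stands for a separate culture, since the series text calls the replicates independent experiments. All cultures began at an OD600 of 0.1 in 50 ml of medium holding yeast extract (10 g/L) and peptone (20 g/L), and grew semi-aerobically at 30 °C, after 3 days of preculture on 20 g/L glucose. The xylose medium held 50 g/L xylose. The glucose medium is given as 20 g/L glucose; its name, YPD5, ends in the digit that YPX5, the xylose medium, bears for 50 g/L, so the stated amount is uncertain. The labels give TMS174 no genotype beyond its xylose fermentation, and the introduced genes are not named there. Strain, sugar, sampling time and slide all changed together: both TMS174 arrays lay on slide 2 and all WT arrays on slide 1. Their separate contributions cannot be told apart in this comparison.

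Yeasts that grow on xylose, a pentose sugar of plant hemicellulose, reduce it to xylitol with a xylose reductase, oxidise xylitol to xylulose with a xylitol dehydrogenase, and phosphorylate xylulose with a xylulokinase. Xylulose 5-phosphate then enters the pentose phosphate pathway and, through it, glycolysis. Glucose enters glycolysis directly, and in many yeasts it represses genes for the use of other carbon sources. Candida utilis, an industrial fodder yeast, can grow on xylose, and strains such as TMS174 were built to ferment it to ethanol.

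The array carried 15208 yeast probes under 8604 design identifiers (design IDs, of the form cut01g followed by digits), and 7966 design IDs were tested, 6229 of them with 2 probes. The other 638 had no probe above background on at least 2 arrays. In the RefSeq gene table for Cybja1, which lists 6184 genes, no entry matched any of the 8604 design IDs (0 matches), and the files do not pair them with gene names. No pathway gene, such as those of xylose use, could therefore be looked up, the introduced genes of TMS174 were not checked, and the results describe transcripts as sets, with 2 design IDs that rose and 2 that fell named. A level below is the log2 of the processed signal relative to the 75th percentile of its array. That percentile was 3554 and 3353 intensity units on the TMS174 arrays, against 2996, 3179 and 2958 on the WT glucose arrays. The share of probes well above background was 89.6% and 89.3% on the TMS174 arrays and 87.8% to 89.2% on those of WT on glucose, and no probe was saturated. Taken over design IDs, which are no independent replicates, the TMS174 arrays correlated with each other at a Pearson's r of 0.996 and with the WT glucose arrays at 0.948 to 0.956, while the WT glucose arrays correlated among themselves at 0.990 to 0.995.

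Nearly 2 in 3 transcripts differed in level between TMS174 on xylose and WT on glucose. Of the 7966 design IDs, 5018 (63.0%) passed the test, 2359 of them higher (29.6%) and 2659 lower (33.4%) in TMS174 (limma, Benjamini-Hochberg adjusted p under 0.05). Most of these changes were small: 3140 of the 5018, or 62.6%, were under 2-fold, and the median change among called design IDs was 1.70-fold for those higher and 1.77-fold for those lower. The standard error of a log2 change had a median of 0.13 and quartiles of 0.09 and 0.20, which the number of arrays limits. At an unadjusted p under 0.05 there were 5323 design IDs. The lowest and highest arrays of the 2 groups left no overlap for 6058 design IDs (76.0%), with TMS174 above for 2896 and below for 3162. All but 2 of the called design IDs were among these. Scaling moved the number of calls and the balance of directions. Relative to 6 spike-in control probes, the median of all design IDs moved from -0.04 to -0.19 on the log2 scale. With that scaling 3686 were called, 1251 higher and 2435 lower.

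**Figure D1:**
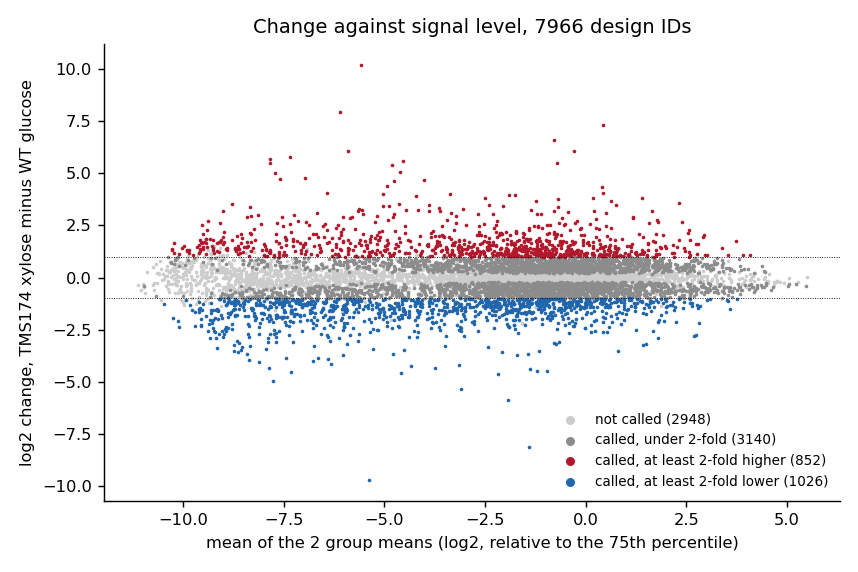
Log2 change of each of the 7966 tested design IDs (vertical axis, TMS174 on xylose minus WT on glucose) against the mean of both group means (horizontal axis, log2 relative to the 75th percentile of the array). Red and blue points passed an adjusted p of 0.05 with a change of at least 2-fold (852 higher, 1026 lower), dark grey points passed it below that size (3140) and light grey points did not pass (2948). Changes of points at the far left rest on signals near background.

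Transcripts that did not pass the test were mostly bounded to small changes. Among the 2948 that were not called, the 95% confidence interval of the change lay wholly within 2-fold in either direction for 2308 (78.3%). For the other 640 the interval reached 2-fold, so a change of that size could not be set aside at this precision.

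The larger changes ran in both directions. At least 2-fold changes were called for 1878 design IDs (23.6%): 852 higher (10.7%) and 1026 lower (12.9%) in TMS174. This count was 1152 (529 higher and 623 lower) with normexp background correction, which here adds an offset of 50 intensity units. Spike-in scaling gave 686 higher and 1327 lower. At 4-fold there were 195 higher and 221 lower, and at 8-fold the higher ones were the more numerous, at 70 against 56. A change of at least 16-fold was fitted for 23 higher and 18 lower design IDs, and of at least 32-fold for 14 and 4. These are fitted sizes, and for a transcript not above background in 1 group the size has only a lower bound. A stricter question, whether the change itself exceeded 2-fold beyond its error, was put with the treat test of limma. It was met by 658 design IDs (8.26%), 293 higher and 365 lower. The smallest fitted change that passed it was 2.51-fold in each direction, and the median was 4.31-fold among the higher and 3.97-fold among the lower. Without WT glucose replicate 2 the treat count rose to 834, while without replicates 1 and 3 it was 530 and 589. The treat count rested on having both TMS174 arrays: it was 365 without TMS174 replicate 1 and 368 without TMS174 replicate 2.

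**Figure D2:**
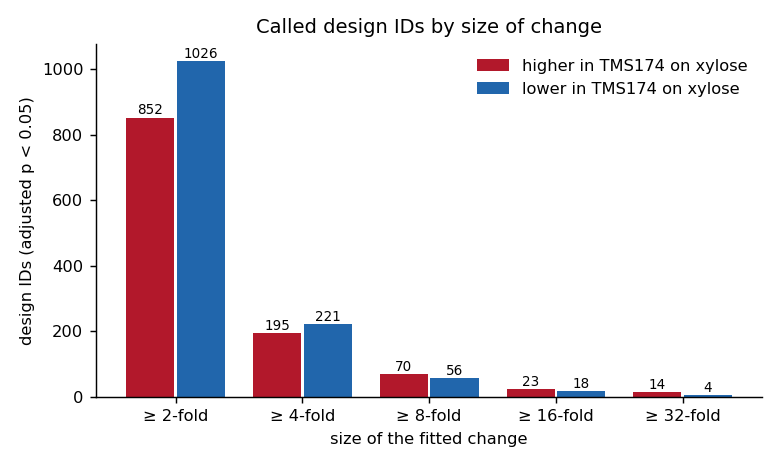
Number of design IDs past an adjusted p of 0.05 (vertical axis) whose fitted change was at least the size on the horizontal axis, with red bars for those higher and blue bars for those lower in TMS174 on xylose than in WT on glucose. Lower calls were the more numerous at 2-fold (852 higher and 1026 lower) and 4-fold (195 and 221), and higher calls from 8-fold on (70 and 56).

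The 2 measured rises named here take a transcript from a level below the array median on glucose to a strong signal. They are the largest among design IDs whose 2 probes both stood well above background on all 8 arrays and both passed the test in the same direction, and whose groups did not overlap, a condition that 3368 design IDs met (600 at least 2-fold higher and 614 at least 2-fold lower). The level of cut01g0050376 was 4.21 and 3.93 on the TMS174 arrays, against -3.30, -3.31 and -3.10 on the WT glucose arrays. The groups lay far apart, with both TMS174 arrays high and all 3 glucose arrays low. The mean was 4.07 ± 0.20 in TMS174 (SD, n = 2) and -3.24 ± 0.12 in WT on glucose (SD, n = 3), a 159-fold rise (log2 change 7.31 with a standard error, SE, of 0.50; limma, adjusted p = 4.6e-05). The WT xylose arrays, with an SD of 0.99 for this design ID, enter this SE. In a fit over the 5 arrays of both groups only, it was 0.13. The probes of cut01g0050376 gave 167-fold and 151-fold. As intensities, the first of them read 67409 and 50036 units in TMS174 and 303, 294 and 325 units in WT on glucose.

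The level of cut01g0011090 was 2.38 and 2.66 in TMS174, against -4.38, -3.94 and -3.97 in WT on glucose. Both TMS174 arrays were high and all 3 glucose arrays low, as the choice requires. It rose 97.9-fold (log2 change 6.61, SE 0.18; adjusted p of limma 3.6e-06), and its probes gave 88.7-fold and 108-fold. Ranked by fitted rise over all tested design IDs, cut01g0050376 came at place 3 and cut01g0011090 at place 4. The next largest rise under the same condition was 67.9-fold.

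Both named falls were transcripts with a strong signal on glucose. The level of cut01g0030251 was -5.53 and -5.42 in TMS174, against 2.65, 2.73 and 2.53 in WT on glucose. It was 277-fold lower in TMS174 (log2 change -8.11, SE 0.13; adjusted p of limma 6.0e-07), the smallest p of the 4 named design IDs, and its probes gave 298-fold and 257-fold. Its first probe stood at 86.4 and 86.2 intensity units in TMS174 and at 22936, 25189 and 20193 units in WT on glucose, and it remained well above background on every array.

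The level of cut01g0050753 was -4.76 and -4.97 in TMS174, against 1.10, 1.43 and 0.43 in WT on glucose. The spread among the glucose arrays was wider here, with replicate 3 the lowest, but stayed small beside the distance between the groups. The means were -4.86 ± 0.15 in TMS174 (SD, n = 2) and 0.99 ± 0.51 in WT on glucose (SD, n = 3). It was 57.6-fold lower in TMS174 (log2 change -5.85, SE 0.41; adjusted p of limma 5.0e-05), and the next largest fall under the same condition was 41.1-fold.

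The WT xylose arrays, which share their sugar and time with TMS174, lay close to TMS174 for 2 of these 4 design IDs and apart from it or spread out for the other two. Set against WT on glucose, the same 3 arrays serve as the control for WT on xylose as for TMS174, so the values are given side by side. For cut01g0011090, levels of 2.92, 2.54 and 2.68 in WT on xylose lay 6.81 above glucose on the log2 scale, beside 6.61 for TMS174. For cut01g0030251, levels of -5.36, -5.74 and -5.39 in WT on xylose gave a log2 change of -8.13 from glucose, beside -8.11 for TMS174. Tested directly, TMS174 minus WT on xylose was -0.19 for cut01g0011090 (SE 0.18, adjusted p of limma 0.49). For cut01g0030251 it was 0.02 (SE 0.13, adjusted p of limma 0.95), so neither passed.

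For the other two, the means lay further apart between the strains on xylose, and the difference passed the test for cut01g0050753. WT on xylose gave 3.86, 1.93 and 2.46 for cut01g0050376, a spread of 0.99 (SD, n = 3), and TMS174 minus WT on xylose was 1.32 (SE 0.50), short of the threshold with an adjusted p of 0.11 in limma. For cut01g0050753, WT on xylose stood at -0.53, -1.80 and -1.40, between TMS174 and WT on glucose and without overlap with either. TMS174 was 12.3-fold lower than WT on xylose (a log2 change of -3.62 with SE 0.41, adjusted p of limma 0.0035), and WT on xylose was itself 4.69-fold lower than WT on glucose (a log2 change of -2.23 with SE 0.37, adjusted p of limma 0.0014).

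**Figure D3:**
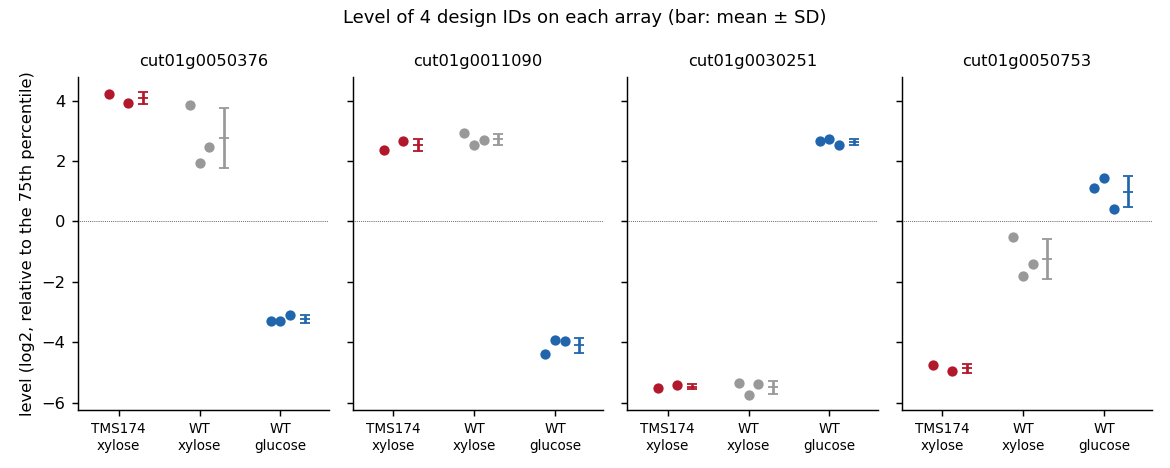
Level of the 4 named design IDs on each array (vertical axis, log2 relative to the 75th percentile of the array), by group from left to right: TMS174 on xylose (red, n = 2), WT on xylose (grey, n = 3) and WT on glucose (blue, n = 3). Points are arrays and bars the mean ± SD. In cut01g0011090 and cut01g0030251 both xylose groups lie together, whereas in cut01g0050753 TMS174 (-4.76 and -4.97) lies below WT on xylose (-0.53 to -1.80).

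As sets, the transcripts at least 2-fold changed had like levels on both TMS174 arrays. The 852 higher design IDs had a median level of -1.40 and -1.42 on the TMS174 arrays, against -3.07, -2.98 and -3.33 on the WT glucose arrays, a separation that their choice fixes. The medians on the WT xylose arrays were -1.23, -1.31 and -1.36. Those arrays entered the choice through the detection filter and the estimate of the spread, and no value for unchanged groups is at hand, so these levels are a description. The 1026 lower design IDs stood at -4.39 and -4.32 in TMS174, against -2.52, -2.76 and -2.58 in WT on glucose. The WT xylose medians were -4.10, -4.22 and -4.09. Over all 7966 design IDs the array medians were -1.76 on both TMS174 arrays, -1.70 to -1.66 in WT on xylose and -1.78 to -1.75 in WT on glucose.

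**Figure D4:**
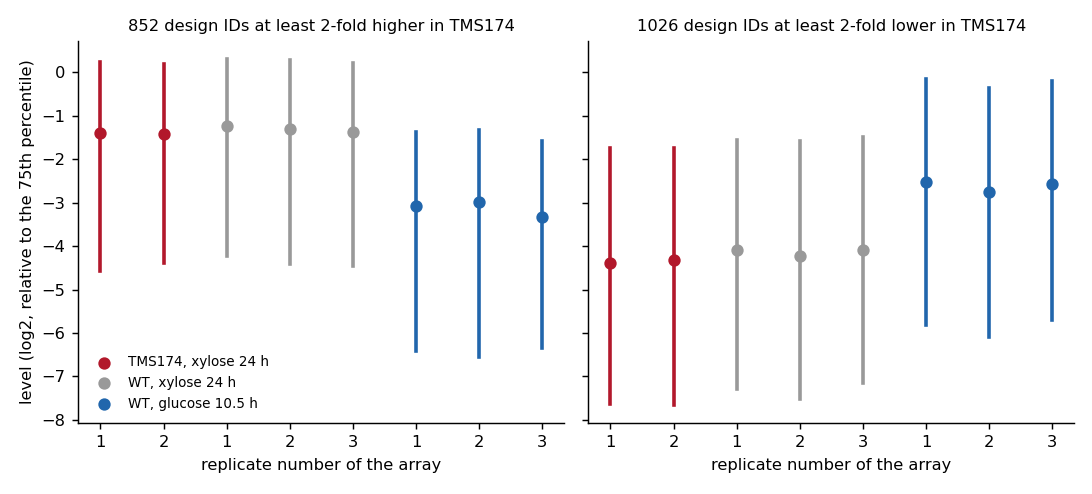
Median level (points) and quartiles (lines) of the 852 design IDs at least 2-fold higher (left) and the 1026 at least 2-fold lower (right) in TMS174 on xylose than in WT on glucose, on each array (horizontal axis, replicate number), with levels as log2 relative to the 75th percentile of the array. The medians of the higher set are -1.40 and -1.42 in TMS174 (red), -1.36 to -1.23 in WT on xylose (grey) and -3.33 to -2.98 in WT on glucose (blue); the choice of the sets fixes the order of TMS174 and WT on glucose.

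Some transcripts were detected in 1 of the groups alone. A set of 90 design IDs was well above background on both TMS174 arrays and on no WT glucose array, and 59 showed the opposite pattern. A further 7235 were detected on all 5 arrays, and 176 on none of the 5. The 90 detected in TMS174 alone were mostly dim: their probes had a median processed intensity of 11.7 and 12.1 units in TMS174 and 3.56, 3.18 and 4.11 units in WT on glucose. The median bound on their rise was only 1.36-fold, with 22 of 90 bounded at 2-fold or more and 8 at 8-fold or more; the highest bound was 300.1-fold. For 12 of them the bound was under 1 and no fold is given. On the WT xylose arrays, 80 of these 90 were above background on all 3 arrays and the other 10 on 1 or 2. Those arrays detected more probes in general (90.9%, 91.4% and 95.2%), and 95.9% of all tested design IDs were above background on all 3. Most tested design IDs are brighter than this set, and no share for equally dim ones is at hand. Whether the count of 80 is particular to the set was not tested. A bound compares the mean of the brighter group with that of the dimmer one, where each dim array takes its own signal or, where higher, the lowest of its signals well above background.

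The 59 transcripts detected on glucose alone were brighter. Their probes read 3.78 and 4.49 units in TMS174 and 15.9, 15.6 and 17.6 units in WT on glucose. The median bound on their fall was 2.78-fold, 52 of the 59 were bounded at 2-fold or more and 6 at 8-fold or more, and the highest bound was 390-fold. These bounds do not compare directly with those of the rises. The lowest signals well above background had levels of -9.22 and -9.05 on the TMS174 arrays, against -8.77 to -8.61 on the WT glucose arrays. On the WT xylose arrays, 15 of the 59 were above background on all 3, 34 on 1 or 2 and 10 on none. Of all tested design IDs, most of them brighter, 95.9% were above background on all 3. No share for equally dim ones is at hand. The set of 59 depended on the arrays used, being 92 without WT glucose replicate 2, and 65 and 60 without replicates 1 and 3. It was 83 without TMS174 replicate 1 and 85 without TMS174 replicate 2. Leaving out an array also leaves fewer arrays that must meet the rule of the set.

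Larger changes were more frequent among transcripts with weak detection. Of the 1878 changes of at least 2-fold, 1610 fell on design IDs detected on all 5 arrays (733 higher and 877 lower in TMS174), which is 85.7% of these changes, while 90.8% of all tested design IDs were detected so. A group without any array above background was involved in 190, 83 higher and 107 lower. Changes of at least 2-fold were thus called for 22.3% of the 7235 design IDs detected on all 5 arrays and for 40.1% of the 474 lacking detection in a group. The 474 include the 90 and the 59 detected in 1 group alone, so their higher share is in part fixed by their definition. They also include the 176 detected on none of the 5 arrays, where both signals compared are near background. How many of the 190 changes fall on those 176 was not counted. Ordered by mean level into 5 bins of 1593 or 1594 design IDs, the share with a called change of at least 2-fold declined from 33.1% in the dimmest bin through 28.0%, 23.2% and 17.9% to 15.6% in the brightest. The surplus of falls lay at the dim end: 190 rose and 338 fell in the dimmest bin, 204 and 242 in the next, 188 and 182 in the middle, 146 and 139 in the one above and 124 and 125 in the brightest. The median log2 change of all design IDs in the dimmest bin was -0.21, against 0.02 in the brightest, and the median standard error was 0.26 against 0.10. Negative-control spots read 31 and 30 intensity units before background subtraction on the TMS174 arrays and 28.5 to 30.5 on the WT glucose arrays. In the processed signal, on which the levels rest, they were lower in TMS174. They read 1.55 and 1.57 units there, against 1.74 to 1.89 in WT on glucose. The part that background subtraction plays in the surplus was not tested by itself.

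Separate probes for a transcript gave like changes. Among the 6229 design IDs with 2 tested probes, both probes passed the test for 3524, in the same direction for 3509 and in opposite directions for 15 (0.43%). Only 1 of the 2 probes passed for 771 design IDs, and neither did for 1934. The log2 changes of the 2 probes differed by a median of 0.07, and by less than 0.28 for 9 in 10 design IDs. Their correlation over design IDs was 0.95 by Pearson's r and 0.95 by Spearman's rho, a description only, as both probes share each array. Of the 1378 such design IDs called at 2-fold or more, both probes were called in the same direction for 1343 (97.5%), and both were themselves changed at least 2-fold for 1230. In 49 of the 1378 the probes differed by more than 1 on the log2 scale.

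**Figure D5:**
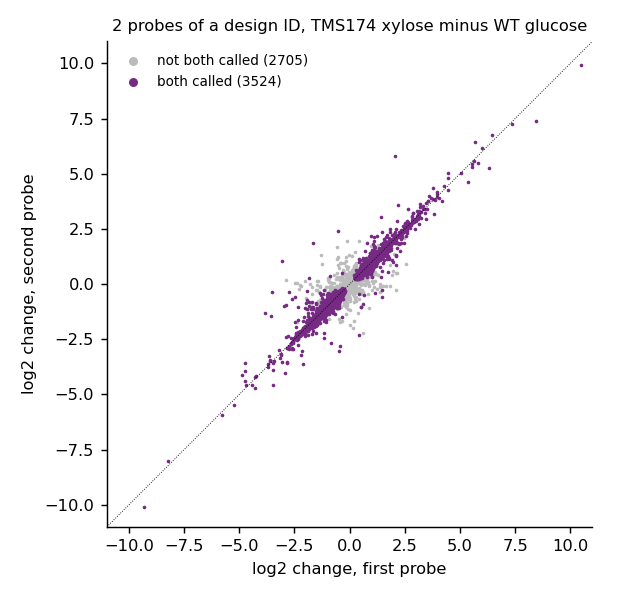
Log2 change (TMS174 on xylose minus WT on glucose) of the second probe (vertical axis) against that of the first probe (horizontal axis) for the 6229 design IDs with 2 tested probes. Purple points have both probes past an adjusted p of 0.05 (3524), grey points do not, and the dotted line marks equal changes; 15 purple pairs lie in opposite quadrants.

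Design IDs with consecutive numbers tended to change alike. Of 7128 pairs of tested design IDs whose numbers differ by 1, the log2 changes correlated at 0.21 by Pearson's r and 0.20 by Spearman's rho, against an r of -0.02 for 7204 pairs set 10 tested places apart. After a design ID called at least 2-fold higher, the next one was also called at least 2-fold higher in 22.5% of 738 cases, where 10.7% of all tested design IDs were. After one at least 2-fold lower the next was likewise lower in 25.2% of 898 cases, where 12.9% of all were. There were 27 runs of 3 or more consecutive numbers at least 2-fold higher, holding 90 design IDs, and 43 runs at least 2-fold lower, holding 138. The longest runs held 5 and 6 design IDs. What the order of the numbers stands for is not given in the files, and the array has more design IDs (8604) than the reference has genes (6184), so that neighbours may in part measure 1 transcript; this was not tested.

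The shares of changed transcripts were alike over blocks of design numbers. The first 3 digits after the prefix divide the tested design IDs into 8 large blocks of 261 to 1490 and 408 small ones, which hold 718 together. Across the 8 large blocks, 62.0% to 65.3% were called, 9.73% to 11.8% were called at least 2-fold higher and 11.8% to 14.1% at least 2-fold lower. Over the 718 in small blocks these shares were 59.1%, 12.8% and 13.8%. A group with no array above background was found for 86 of these 718 design IDs, and for 4.34% to 6.54% in the large blocks. Position on the slide showed little trend, with median log2 changes from -0.08 to 0.03 over 8 bands of rows and -0.04 to -0.02 over 4 bands of columns.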

How the data were processed

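Members and lists were chosen with earlier results of these data known. Per the submitters' processing notes, Agilent Feature Extraction 9.5.3.1 read the arrays. Its files, as deposited and per the file headers, hold a background-subtracted processed signal intensity for each spot on a linear scale, not normalized between arrays, with median spot and background intensities and flags. A deposited value table holds the ratio of that signal to 1 number per array, as its values show (3547 for TMS174 replicate 1); the authors' choice of it was not given in the sources used here.

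From the deposited intensity, log2 levels were computed relative to the 75th percentile of the non-control probes on each array. The 536 control spots and 0 to 10 outlier spots per array were left out. Probes well above background on at least 2 of 8 arrays were kept (14195) and averaged by design ID. A flagged spot left 7 design IDs without a value on 1 array, 1 of them in TMS174 or WT on glucose, which the fit dropped. The comparison used limma 3.58.1 with R 4.3.3 (group means over all 8 arrays, 5 residual degrees of freedom, eBayes, and treat at a log2 change of 1), two-sided, with Benjamini-Hochberg adjustment at 0.05 over 7966 design IDs. Only the limma comparison was tested on simulated levels, in which few design IDs changed. The scaling, the filter, the detection sets and treat were not tested so. Named were the 2 largest rises and falls among design IDs with 2 probes, each above background on all 8 arrays and past the test in 1 direction, whose groups do not overlap. The planned gene lists could not be applied, for want of gene names.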

Additional observations from a re-analysis of the deposited data

Results flagged for a closer look

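The spike-in control spots, which the main scaling of the transcripts does not use, were brighter on both TMS174 arrays than on every WT glucose array, by 0.33 on the log2 scale. Their mean log2 intensity was 10.3 ± 0.03 in TMS174 (10.3 and 10.4, SD, n = 2) and 10.0 ± 0.08 in WT on glucose (9.93 to 10.1, SD, n = 3). Set against these spots, the 75th percentile over yeast probes stood at 1.41 ± 0.08 in TMS174 (SD, n = 2) and at 1.56 ± 0.13 in WT on glucose (SD, n = 3, log2), and the groups overlapped (1.47 and 1.35 against 1.46 to 1.71). On the WT xylose arrays, which enter the estimate of the spread, the spike-in spots varied more. They stood at 9.69, 10.1 and 10.2 there, with a mean of 10.0 ± 0.27 (SD, n = 3). The amounts of spike-in added were not given in the sources used here. No group held the 4 arrays needed to test for a single outlying array.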

How the results depend on the processing

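Of 198 recomputed counts, 183 lay within 1.5 times the reported one. Normexp correction, with its offset of 50 intensity units, gave 1152 changes of at least 2-fold (529 higher and 623 lower). It gave 400 by treat (190 and 210) and a median over all design IDs of -0.14. Spike-in scaling gave 1251 called higher and 2435 lower, 686 and 1327 at 2-fold, and 188 higher and 386 lower by treat, so that 33.9%, 34.1% and 32.8% were higher, against 47.0%, 45.4% and 44.5% as reported. Leaving out each array gave 3853 to 5337 calls (1820 to 2465 higher, 2033 to 2872 lower), 1749 to 2049 at 2-fold (786 to 885 higher, 945 to 1164 lower) and 365 to 834 by treat (171 to 352 higher, 188 to 482 lower). The lowest treat counts came without TMS174 replicate 1 (177 higher, 188 lower) and without TMS174 replicate 2 (171 and 197), each of which leaves 1 TMS174 array, assumed to vary like the other groups. The sets detected in 1 group alone ranged over 89 to 132 (TMS174) and 59 to 92 (WT on glucose, highest without replicate 2). Among the counts with 1 array left out, the highest came without WT glucose replicate 2: 5337 calls, 2049 at 2-fold and 834 by treat. For the normexp and spike-in values the cause was not tested, and neither was the part of the normexp offset. The 4 named design IDs were chosen as the largest passing changes in these same arrays, which nearly fixes the next result in advance. The 4 named design IDs kept their direction and passed the test under each of 19 alternatives, with log2 changes of 7.0 to 7.45, 6.16 to 6.76, -8.26 to -7.28 and -6.13 to -5.11 in the order named and adjusted p up to 0.00097. With the replicate number as a block there were 4611 calls, 1795 at 2-fold and 530 by treat, each within 1.5 times; replicates 1 and 2 of TMS174 and WT on glucose deviated together at r = 0.04 across design IDs, and same-numbered WT cultures on xylose and glucose at 0.03, 0.18 and 0.08 (replicates 1 to 3), not all above 0.1, so the numbers were not taken to pair the cultures. Quantile and median scaling, the deposited table, both filters, single probes, the fit on 5 arrays, the trended spread and array weights kept each count within 1.5 times.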
